A study of Mus musculus with 6 samples.

Results

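The genes described are those of adrenomedullin, endothelin and the receptors of both peptides, in As4.1 cells treated with an interleukin or with hydrogen peroxide. They were chosen by name: Adm, Calcrl, Ramp1, Ramp2, Ramp3, Ackr3, Edn1, Ednra and Ednrb, each read at the probe sets that the array annotation gives to that gene alone. Of these 9 genes 8 had such a probe set, out of 18193 genes in all, and they had 15 probe sets out of 45037. Ednra was not analysed here. As4.1 is a mouse line isolated from a kidney tumour of a transgenic mouse that carried a viral T antigen under a renin promoter, and it is studied as a model of the renin-secreting juxtaglomerular cell. All 3 groups were As4.1 cells, and they received interleukin (which one is not given by the labels), hydrogen peroxide, or vehicle. Each group held 2 samples with 1 Affymetrix mouse array each, and no dose or time is given in the labels. Nothing in the labels says that the 2 samples of a group came from separate cultures, so p-values measure the spread between these samples, which may be technical.

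Adrenomedullin is a secreted vasodilator peptide, and its gene is a textbook target of hypoxia and of inflammatory cytokines. The peptide signals through Calcrl, a G-protein-coupled receptor that needs a partner of the RAMP family at the cell surface: with Ramp2 or Ramp3 it binds adrenomedullin, and with Ramp1 it binds calcitonin gene-related peptide. Ackr3 is an atypical receptor that takes up the chemokine Cxcl12 and, in mice, adrenomedullin. Endothelin-1, the product of Edn1, is a strong vasoconstrictor made chiefly by endothelial cells, it acts on the receptors Ednra and Ednrb, and in the kidney it restrains renin release.

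Levels are given as linear MAS5 signal. Log2 changes were tested with limma over the brighter probe sets, 22519 in number, with a geometric mean signal of 193.7 (the median of all) or more. Of the members 4, Adm, Ramp2, Ramp3 and Ackr3, had a probe set that bright, and the other 4, Calcrl, Ramp1, Edn1 and Ednrb, had none and were not tested there. The tested members did not pass this filter through 1 group alone, since their lowest signal on any array was 319.0. The RNA was extracted in bulk, so fewer cells that carry a transcript and less of it per cell cannot be told apart.

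Adm was higher under both treatments. At its brighter probe set, 1447839_x_at, the signal was 5708.3 and 5495.2 with interleukin, 1996.7 and 1547.7 with hydrogen peroxide, and 771.4 and 775.5 with vehicle. The 3 groups did not overlap, and the order interleukin, hydrogen peroxide, vehicle held for every array. Interleukin raised Adm 7.24-fold over vehicle, which on the log2 scale is 2.86 ± 0.15 (SE of the limma fit to 2 arrays a group, adjusted p = 1.28e-06), and 53 of the tested probe sets had a higher log2 change in that comparison. Hydrogen peroxide raised it 2.27-fold, a log2 change of 1.18 ± 0.15 (adjusted p = 0.00236), with 212 probe sets higher. The log2 change was 1.67 ± 0.15 with interleukin over hydrogen peroxide (adjusted p = 7.31e-05), so all neighbours in the order differed. The call under hydrogen peroxide was lost with a variance model that ignored the signal level (adjusted p = 0.0622).

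The suffix of that probe set marks it as able to match other transcripts, and the second probe set of the gene, 1416077_at, has no such mark. There the signal was 4765.3 and 4502.8 with interleukin, 1569.5 and 1534.6 with hydrogen peroxide, and 785.6 and 766.5 with vehicle. The log2 change was 2.58 ± 0.13 under interleukin (adjusted p = 1.1e-06), and the signal was 2-fold higher under hydrogen peroxide (adjusted p = 0.00294). Both probe sets gave the same order of the groups. Adm lies on chromosome 7, from 110627657 to 110629820 in GRCm38.p6.

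Some measures of the samples stood in the order of Adm, and their part in its change was not tested. Signal at the 3′ end of beta-actin over that at its 5′ end, a measure of RNA integrity, was 1.46 and 1.55 with interleukin, 1.35 and 1.32 with hydrogen peroxide, and 1.22 and 1.26 with vehicle. The same ratio for Gapdh differed less, at 0.847 and 0.873 with interleukin, 0.845 and 0.836 with hydrogen peroxide, and 0.825 and 0.836 with vehicle, and there hydrogen peroxide overlapped with vehicle. The summed signal of 10 leukocyte markers was 2422 and 2278 with interleukin, 1921 and 1955 with hydrogen peroxide, and 1335 and 1422 with vehicle. Without Cd68 and Csf1r, the 2 brightest, the sum of the other 8 was 674 and 1063 with interleukin, 483 and 586 with hydrogen peroxide, and 564 and 424 with vehicle, and hydrogen peroxide overlapped with vehicle. The lower quartile of all signals was also highest on interleukin array 2, at 69.2 against 51.4 on interleukin array 1, and its part in this sum was not tested. Of the 10 markers 2 were bright enough to be tested, and the defining marker Ptprc lay between 21.3 and 125.7. Cd68, a lysosomal protein of macrophages and other cells, rose 2.38-fold under interleukin (adjusted p = 0.00851) and 2.06-fold under hydrogen peroxide (adjusted p = 0.0419). Its call was lost under interleukin without interleukin array 1 (0.0567) or vehicle array 1 (0.0696), and under hydrogen peroxide without any 1 of the 4 arrays (0.117 to 0.209) or without a trend in the variance (0.130). The other tested marker, Csf1r, a receptor of macrophages, did not pass at its brightest probe set (log2 change 0.11 under interleukin and 0.30 under hydrogen peroxide), while 1419872_at rose by 1.37 (adjusted p = 0.00664) and 1.34 (0.0189).

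Ramp2 and Ramp3, the RAMP partners of the adrenomedullin receptors, were lower with interleukin. Ramp3, with which Calcrl forms one of its adrenomedullin receptors, had a signal of 319.0 and 410.1 with interleukin, 731.1 and 690.7 with hydrogen peroxide, and 902.0 and 1007.4 with vehicle. No 2 groups overlapped, in the reverse of the order seen for Adm. Under interleukin Ramp3 fell to 364.6 ± 64.4, against 954.7 ± 74.5 with vehicle (SD, n = 2), a log2 change of -1.40 ± 0.21 (SE, adjusted p = 0.00157), and 22313 of the tested probe sets had a higher log2 change. The difference between hydrogen peroxide and vehicle, a log2 change of -0.42 ± 0.21, did not pass (adjusted p = 0.271, 95% interval -0.89 to 0.04).

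Ramp3 was also lower with interleukin than with hydrogen peroxide, by a log2 change of -0.97 ± 0.21 (adjusted p = 0.0172). That call was lost without interleukin array 1 (adjusted p = 0.0614), hydrogen peroxide array 1 (0.0699) or hydrogen peroxide array 2 (0.0747). Ramp3 had 1 probe set, 1420401_a_at, and lies on chromosome 11, from 6658506 to 6677478.

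Ramp2, the partner that makes Calcrl a receptor selective for adrenomedullin, had a signal of 1655.4 and 1637.6 with interleukin, 2058.0 and 1502.2 with hydrogen peroxide, and 2464.6 and 2576.4 with vehicle. The arrays of both treatments lay below those of vehicle, and the 2 treatments overlapped. The log2 change was -0.61 ± 0.16 under interleukin (adjusted p = 0.0277) and -0.52 ± 0.16 under hydrogen peroxide (adjusted p = 0.0899), and only the first passed. With 1 probe set per gene in the test the second passed too (adjusted p = 0.0453). Leaving out each array in turn moved it between -0.75 (without hydrogen peroxide array 1, adjusted p = 0.0617) and -0.29 (without hydrogen peroxide array 2, 0.382), and it passed in none of these fits. Between the treatments it was -0.09 ± 0.16 (adjusted p = 0.774, 95% interval -0.45 to 0.26). The call under interleukin was lost without any 1 of the 4 arrays compared, with adjusted p of 0.0818 without interleukin array 1, 0.0828 without interleukin array 2, 0.119 without vehicle array 1 and 0.157 without vehicle array 2, and also without a trend in the variance (0.0884).

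These values come from 1418187_at, and the gene lies on chromosome 11, from 101246334 to 101248250. Another 2 probe sets are annotated to Ramp2 together with Vps25, a subunit of an endosomal sorting complex, and were left out for that reason. Their log2 changes under interleukin were -0.40 (1421051_s_at, adjusted p = 0.0733) and -0.23 (1428621_a_at, adjusted p = 0.196), and neither passed under hydrogen peroxide either (-0.07 and -0.08).

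Endothelial cells, the main source of Edn1, also carry Calcrl, Ramp2 and Ednrb. Of 14 endothelial markers 12 were too dim to be tested, including Pecam1 (48.7 at its highest), Vwf (4.5 to 44.8) and Cdh5 (55.2 to 206.3). The summed signal, mostly that of Kdr, a receptor of vascular endothelial growth factor, was 9641 and 13056 with interleukin, 12924 and 11923 with hydrogen peroxide, and 14409 and 16788 with vehicle. Kdr fell under interleukin (log2 change -0.60, adjusted p = 0.0194), a call lost without interleukin array 1 (-0.36, adjusted p = 0.0983) or vehicle array 2 (-0.48, 0.160), and lost without a trend in the variance (0.119). Without Kdr the sum of the other 13 was 1572 and 1843 with interleukin, 1609 and 1462 with hydrogen peroxide, and 1174 and 1098 with vehicle. Of these 13, 10 had a higher mean with interleukin than with vehicle and 3 a lower one, and Egfl7, the one tested, did not pass (log2 change 0.51 under interleukin and 0.72 under hydrogen peroxide). The lower quartile of all signals was 69.2 on interleukin array 2, against 51.4 on interleukin array 1 and 54.1 and 48.9 with vehicle. Dim signals as a whole were thus higher on that array, and their part in this sum and count was not tested. Kdr, Ramp2 and Ramp3 were called lower under interleukin. The other endothelial markers except Egfl7 were too dim to be tested, and the part of these markers in the change of Ramp2 and Ramp3 was not tested.

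Ackr3 moved in opposite directions under the 2 treatments. Its signal was 19311.0 and 13611.4 with interleukin, 5962.3 and 6318.4 with hydrogen peroxide, and 11421.6 and 9583.7 with vehicle. The 3 groups did not overlap, and the interleukin arrays lay far from each other. Interleukin raised it 1.55-fold, a log2 change of 0.63 ± 0.15 (SE, adjusted p = 0.0181), and under hydrogen peroxide it fell, with a log2 change of -0.77 ± 0.15 (adjusted p = 0.0173). The direct difference, interleukin over hydrogen peroxide, was a log2 change of 1.40 ± 0.15 (adjusted p = 0.000259), and 235 of the tested probe sets had a higher one.

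Each call of Ackr3 against vehicle was lost when some arrays were left out, while the direction was kept. With each array left out in turn the log2 change ran from 0.38 to 0.88 under interleukin and from -0.90 to -0.64 under hydrogen peroxide. Leaving out a compared array leaves 1 array in its group. Under interleukin it was lost without interleukin array 1 (log2 change 0.38, adjusted p = 0.0944) and without vehicle array 2 (0.51, adjusted p = 0.150). Under hydrogen peroxide it was lost without any 1 of the arrays compared, with adjusted p of 0.0938 without hydrogen peroxide array 1, 0.0527 without hydrogen peroxide array 2, 0.138 without vehicle array 1 and 0.0568 without vehicle array 2. Without a trend in the variance the adjusted p was 0.113 under interleukin and 0.136 under hydrogen peroxide. The direct difference between the treatments passed without each of the 6 arrays in turn. The probe set, 1417625_s_at, is of a kind that can match several transcripts, and the gene lies on chromosome 1, from 90203980 to 90215724.

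**Figure D1:**
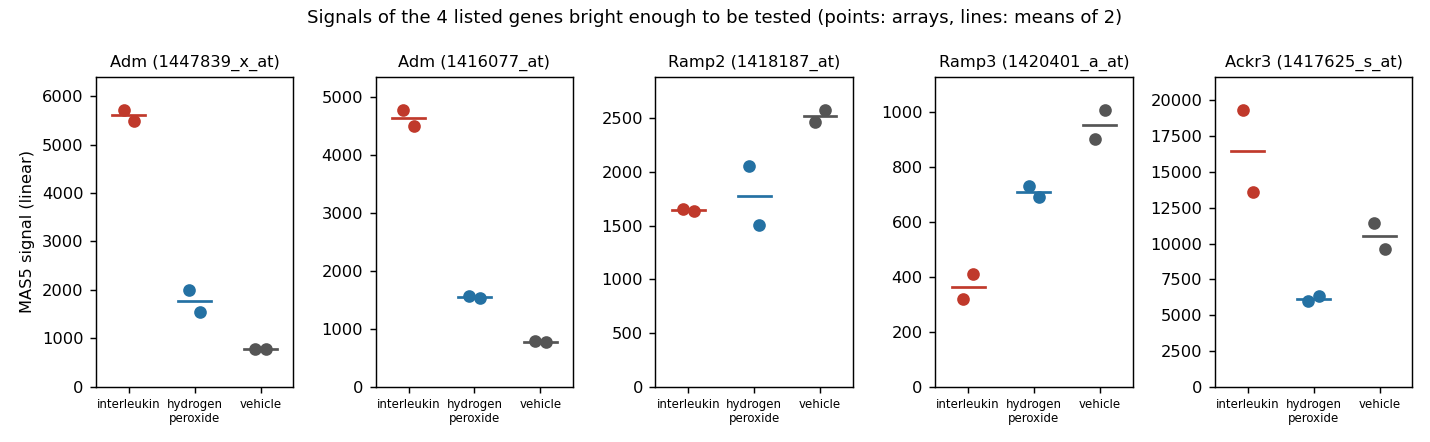
MAS5 signal on a linear scale (vertical axis) of the 5 tested probe sets of Adm, Ramp2, Ramp3 and Ackr3 by group, with a point per array and a line at the mean of 2 arrays. Adm is highest with interleukin at both probe sets (4502.8 to 5708.3), Ramp3 is lowest there (319.0 and 410.1), and Ackr3 is highest with interleukin and lowest with hydrogen peroxide.

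All 4 tested members passed under interleukin, 2 higher (Adm and Ackr3) and 2 lower (Ramp2 and Ramp3), where 16.1% of all tested probe sets were called, 7.58% higher and 8.52% lower. Under hydrogen peroxide 2 passed, Adm higher and Ackr3 lower, where 5.69% were called, 3.05% higher and 2.65% lower. That split, 686 higher and 596 lower, became 602 higher and 879 lower when arrays were centred on the 75th percentile of signal. Between interleukin and hydrogen peroxide 3 passed, Adm and Ackr3 higher and Ramp3 lower, where 8.82% were called, 4.95% higher and 3.87% lower. In every comparison the arrays of the 2 groups lay apart for over 50% of all tested probe sets (59%, 55.3% and 51.7% in the order above), so that arrays that do not overlap are no mark of the members. Both comparisons with vehicle share the vehicle arrays. The shares called are over probe sets, while members are counted as genes at their brightest probe set. With 1 probe set per gene, limma called 2128 of 10892 under interleukin (1259 higher, 869 lower) and 1270 under hydrogen peroxide (769 and 501). Between the treatments it called 1534 (840 and 694). In that setting 4, 3 and 3 members were called.

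**Figure D2:**
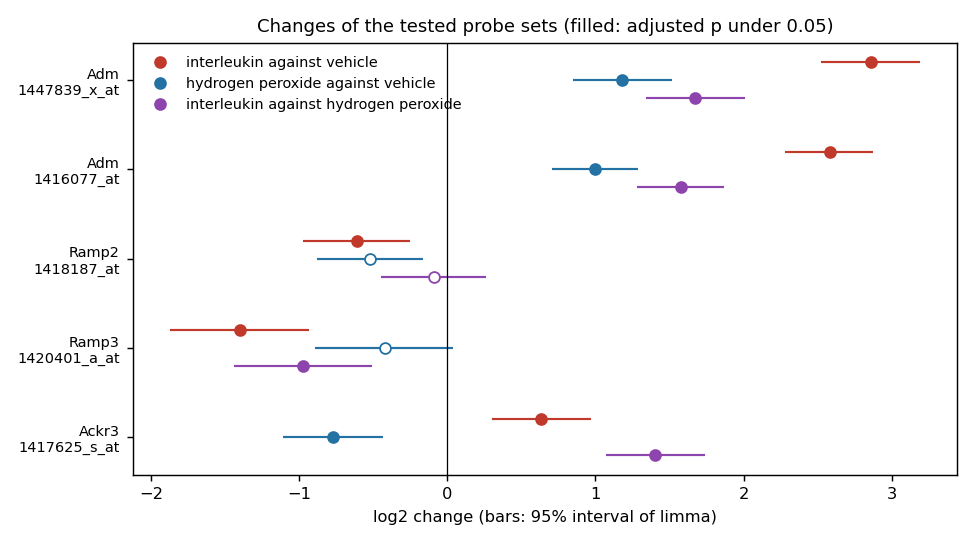
Log2 change (horizontal axis) of the 5 tested probe sets in the 3 comparisons, with the 95% interval of limma as bars and filled points where the adjusted p was under 0.05. Under interleukin the changes run from 2.86 for Adm to -1.40 for Ramp3, and Ackr3 lies on opposite sides of 0 under interleukin (0.63) and hydrogen peroxide (-0.77).

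The stretches before the start sites of Adm, Ackr3 and Ramp3 are shown because these members had the greatest log2 changes among the tested ones. They are the 250 bases before the start site used by the RefSeq promoter table, on the plus strand of GRCm38.p6, for Adm at chr7:110627407-110627656, for Ackr3 at chr1:90203730-90203979 and for Ramp3 at chr11:6658283-6658532, each written 5′ to 3′. For Ramp3 that start site, 6658533, lies 27 bases after the start of the gene given above, so the end of its window is inside the gene. Capitals mark the core of the hypoxia element (ACGTG or GCGTG, either strand) and the TATA sequence TATAA on either strand.
Adm: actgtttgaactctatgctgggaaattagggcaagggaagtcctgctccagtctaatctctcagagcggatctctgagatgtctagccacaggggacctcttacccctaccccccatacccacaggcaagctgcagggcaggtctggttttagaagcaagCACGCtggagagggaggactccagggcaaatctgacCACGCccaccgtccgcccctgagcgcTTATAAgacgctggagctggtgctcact
Ackr3: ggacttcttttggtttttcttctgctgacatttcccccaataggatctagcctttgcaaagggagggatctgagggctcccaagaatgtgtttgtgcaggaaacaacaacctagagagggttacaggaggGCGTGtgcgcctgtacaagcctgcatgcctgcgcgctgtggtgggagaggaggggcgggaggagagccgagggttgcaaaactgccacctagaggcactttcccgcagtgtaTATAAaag
Ramp3: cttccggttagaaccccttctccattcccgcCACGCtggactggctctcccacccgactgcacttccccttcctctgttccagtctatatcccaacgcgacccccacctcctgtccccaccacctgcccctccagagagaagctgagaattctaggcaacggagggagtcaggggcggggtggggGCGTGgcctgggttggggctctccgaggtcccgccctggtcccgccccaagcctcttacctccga

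The core of the hypoxia element began 90 and 54 bases before the start of Adm, 120 before that of Ackr3, and 219 and 65 before the start site used for Ramp3. It occurs in 38.6% of 32851 such windows of the RefSeq table. TATAA was found before Adm, beginning 28 (minus strand) and 27 (plus strand) bases from its start, and before Ackr3, only 8 bases from its start. It was not found before Ramp3, and 22.8% of windows hold it. The AP-1 motif TGANTCA (6.7% of windows) and the sequence TGACG from the cAMP element (17.8%) were in none of the 3, and the kappaB motif (3.9%) was found once, before Ramp3, beginning 51 bases from the start site used. All motifs were searched on both strands, and a match of letters is a description only.

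The receptor Calcrl itself had dim signals throughout. Its brightest probe set, 1418489_a_at, gave 64.2 ± 30.1 with interleukin, 25.4 ± 14.6 with hydrogen peroxide, and 30.15 ± 21.4 with vehicle (SD, n = 2 each). Over its 3 probe sets the 18 values lay between 3.1 and 85.5 with a median of 26.6, and 0 of them reached 193.7. Interleukin overlapped with vehicle at all 3 probe sets. No detection call was used, so these signals do not show that the transcript was absent. Calcrl lies on chromosome 2, from 84330626 to 84425405.

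Ramp1, the partner for calcitonin gene-related peptide, had 3 dim probe sets that did not order the groups alike. At 1447474_at the signal was 184.8 and 311.7 with interleukin, 153.0 and 86.8 with hydrogen peroxide, and 140.9 and 72.8 with vehicle. At 1417481_at it was 145.2 and 38.5 with interleukin, 214.5 and 219.5 with hydrogen peroxide, and 122.9 and 215.0 with vehicle. Interleukin was thus the highest group at the first and the lowest by its mean at the second. The third probe set, 1431413_at, lay between 7.5 and 85.5. The gene lies on chromosome 1, from 91179822 to 91225196.

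Edn1, the endothelin ligand, had 1 probe set, 1451924_a_at, with a signal of 86.2 and 12.2 with interleukin, 8.5 and 14.8 with hydrogen peroxide, and 19.8 and 35.5 with vehicle. The interleukin arrays overlapped with both other groups, and the hydrogen peroxide arrays lay below those of vehicle at signals where arrays of 1 group differ severalfold. Edn1 lies on chromosome 13, from 42301476 to 42307990. Ednrb, the endothelin receptor type B, had 3 dim probe sets. At 1423594_a_at the signal was 149.9 and 194.6 with interleukin, 64.1 and 94.3 with hydrogen peroxide, and 39.3 and 47.3 with vehicle, and no groups overlapped there. At its brightest probe set, 1426314_at, it was 102.7 and 190.6 with interleukin, 110.2 and 78.2 with hydrogen peroxide, and 116.1 and 69.1 with vehicle, and all groups overlapped. At 1437347_at it was 44.25 ± 45.6 with interleukin, 84.05 ± 9.26 with hydrogen peroxide, and 12.8 ± 8.06 with vehicle (SD, n = 2 each). Ednrb lies on chromosome 14, from 103814615 to 103844508.

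When limma was run without a filter on signal, over 45037 probe sets, 0 of the 10 dim probe sets passed in any comparison, where 5.98% passed under interleukin, 1.69% under hydrogen peroxide and 3.24% between the treatments. Of these 30 tests 3 had an unadjusted p under 0.05. They were Ednrb 1423594_a_at under interleukin (log2 change 1.99 ± 0.67, SE, adjusted p = 0.132), Ednrb 1437347_at under hydrogen peroxide (2.87 ± 1.14, adjusted p = 0.284) and Ramp1 1417481_at with interleukin over hydrogen peroxide (-1.54 ± 0.68, adjusted p = 0.331). The 95% intervals at these signals were wide: for Edn1 under interleukin the interval ran from -2.37 to 2.95, and for the brightest probe set of Calcrl from -1.08 to 3.52.

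**Figure D3:**
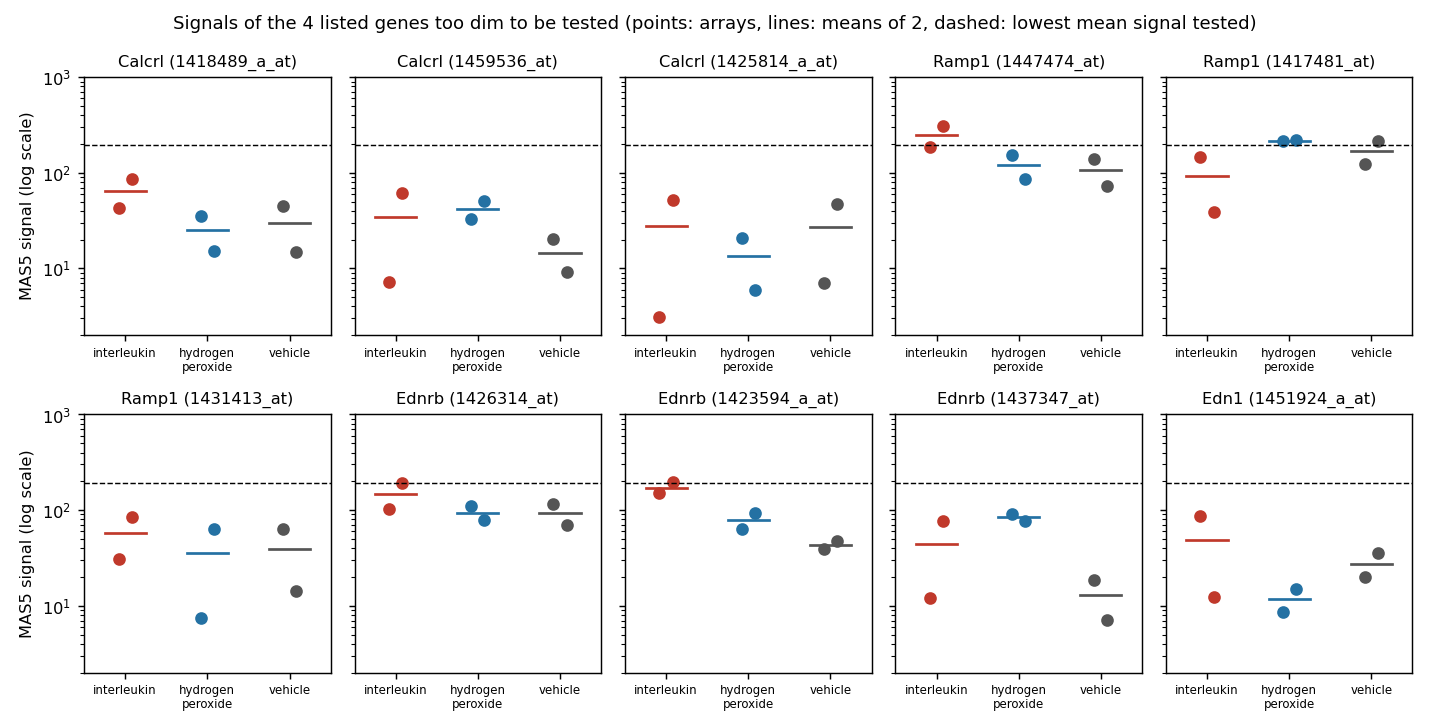
MAS5 signal on a log scale (vertical axis) of the 10 probe sets of Calcrl, Ramp1, Ednrb and Edn1 by group, with a point per array, a line at the mean of 2 arrays and a dashed line at 193.7, the lowest mean signal tested. Of 60 values 5 lie above the dashed line, 4 of Ramp1 and 1 of Ednrb, and probe sets of 1 gene order the groups differently.

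Among 16 further genes of the adrenomedullin and calcitonin family and its signalling, 14 were on the array and 8 bright enough to be tested. Under interleukin, where 16.1% of all tested probe sets were called, 3 rose and 5 did not pass. The list's median log2 change was -0.04 (-0.02 over all tested probe sets). Adm2, which encodes the related peptide intermedin, had 680.1 and 679.6 with interleukin, 957.4 and 911.3 with hydrogen peroxide, and 336.5 and 354.5 with vehicle. The 3 groups did not overlap, with hydrogen peroxide the highest, whereas Adm was highest with interleukin. Adm2 rose under both, by a log2 change of 0.98 ± 0.20 (SE, adjusted p = 0.00755) and 1.44 ± 0.20 (adjusted p = 0.00342), and the difference between the treatments did not pass (-0.46, adjusted p = 0.187). The call under interleukin was lost without vehicle array 1 (adjusted p = 0.0560).

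Pam, the enzyme that amidates adrenomedullin and other peptides and so completes their maturation, had 684.3 and 790.4 with interleukin, 448.7 and 653.8 with hydrogen peroxide, and 239.5 and 409.7 with vehicle. Interleukin and vehicle did not overlap, and the 2 vehicle arrays lay far apart. Pam rose 2.35-fold under interleukin (adjusted p = 0.0197), a call lost without vehicle array 1 (log2 change 0.84, adjusted p = 0.154), interleukin array 1 (1.34, 0.0596) or interleukin array 2 (1.13, 0.0958). Cxcl12, the chemokine ligand of Ackr3, had 55355.8 and 59966.7 with interleukin, 39925.2 and 36748.7 with hydrogen peroxide, and 47020.6 and 49173.0 with vehicle. It thus stood in the same order of groups as Ackr3.

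Cxcl12 was 1.5-fold higher with interleukin than with hydrogen peroxide (adjusted p = 0.000733), and this passed without each array in turn but not without a trend in the variance (0.0660). Its calls against vehicle, higher with interleukin (log2 change 0.26, adjusted p = 0.0384) and lower with hydrogen peroxide (-0.33, adjusted p = 0.0314), were small. They were lost without each of vehicle array 1, vehicle array 2 and interleukin array 2 (adjusted p 0.122 to 0.221), and without any 1 of the arrays compared under hydrogen peroxide (0.0698 to 0.222). Another probe set of Cxcl12, 1417574_at, rose by 0.82 under interleukin, and one more, 1439084_at, did not pass (-0.35). Neither passed under hydrogen peroxide (-0.19 and -0.34), and at 1439084_at the difference between the treatments did not pass (-0.01, adjusted p = 0.993). The other 2 genes of this list that passed under hydrogen peroxide, beside Cxcl12, were Adm2 and, lower, Gnas, the stimulatory G-protein subunit to which Calcrl couples (log2 change -0.38, adjusted p = 0.0357). The call of Gnas was lost without any 1 of its 4 arrays (adjusted p 0.0689 to 0.203). Without a trend in the variance the calls of Pam (0.0686), Cxcl12 (0.218 under interleukin and 0.216 under hydrogen peroxide) and Gnas (0.214) were lost. These values of Gnas are from its brightest probe set, and another, 1427789_s_at, was called lower under interleukin (log2 change -4.12) and hydrogen peroxide (-1.41), as described at the end. A probe set of the peptidase Ide, 1453988_a_at, was also called lower under interleukin (-0.89, adjusted p = 0.0107), while its brightest was not (-0.21). The list's median under hydrogen peroxide was 0.02, the same as over all tested probe sets, of which 5.69% were called there. Calcb, Calcr, Iapp, Mme, Cxcl11 and Cxcr4 were too dim to be tested. Among them Cxcl11, another chemokine ligand of Ackr3, had 644.2 and 407.1 with interleukin, 106.1 and 202.6 with hydrogen peroxide, and 70.0 and 26.9 with vehicle, and the groups did not overlap.

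Of 22 further genes of the endothelin pathway 21 were on the array and 15 were tested. Under interleukin 16.1% of all tested probe sets were called (2128 of 10892 with 1 probe set per gene). Of the 15, 3 rose, 0 fell and 12 did not pass, with a median log2 change of 0.14 (-0.02 over all tested probe sets). They were Furin, a convertase that cleaves the endothelin precursor (1.49-fold, adjusted p = 0.0259), and the inositol trisphosphate receptors Itpr3 (1.5-fold, adjusted p = 0.0125) and Itpr2 (2.61-fold, adjusted p = 0.0183), which release calcium downstream of the endothelin receptors. Itpr2 had 421.9 and 373.1 with interleukin, 222.7 and 311.7 with hydrogen peroxide, and 153.0 and 150.5 with vehicle, the last below the lowest mean signal tested. A second probe set of Itpr2, 1424834_s_at, did not pass (log2 change 0.95, adjusted p = 0.0785). Each of the 3 calls was lost without 1 array or another, with adjusted p of 0.0617 to 0.195 for Furin (vehicle array 1 or 2, or interleukin array 2), 0.0631 to 0.121 for Itpr3 (vehicle array 1 or interleukin array 1) and 0.0530 to 0.0935 for Itpr2 (any of the 4). Without a trend in the variance those of Furin (0.0848) and Itpr3 (0.0555) were lost. A probe set of the G-protein subunit Gna12, 1421026_at, was called lower under interleukin (-0.56, adjusted p = 0.0293), while its brightest was not (0.09).

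The endothelin-converting enzymes cut the precursor to its active form. Ece1 had 2130.3 and 2634.5 with interleukin, 3185.0 and 3664.7 with hydrogen peroxide, and 3117.2 and 2002.9 with vehicle, and it did not pass in any comparison. Ece2 was the 1 gene of the list to pass under hydrogen peroxide, 1.45-fold higher (adjusted p = 0.0448), and its call was lost without any 1 of the 4 arrays (adjusted p 0.114 to 0.287) or without a trend in the variance (0.113). Another probe set of Ece2, 1424561_at, had a log2 change of -0.21 there. The list's median under hydrogen peroxide was 0.22, against 0.02 over all tested probe sets, of which 5.69% were called there. Between the treatments limma called 0 of 15 (8.82% of all tested probe sets), with 4 of the 15 at an unadjusted p under 0.05. Gnaq and Gna11, the G-protein subunits through which both endothelin receptors raise calcium, had log2 changes of 0.00 and -0.02 under interleukin and -0.15 and 0.13 under hydrogen peroxide, and neither passed. The ligands Edn2 and Edn3 and the peptidase Mme were too dim to be tested. Edn2 had 208.9 and 277.2 with interleukin, 167.0 and 138.9 with hydrogen peroxide, and 111.2 and 98.4 with vehicle, and Edn3 had 146.9 and 248.0 with interleukin, 147.1 and 46.9 with hydrogen peroxide, and 143.4 and 67.7 with vehicle.

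Of 30 genes of other vasoactive peptides and their receptors 7 were bright enough to be tested. Apln, which encodes the vasodilator peptide apelin, had 2065.9 and 2293.4 with interleukin, 720.9 and 667.3 with hydrogen peroxide, and 729.0 and 585.6 with vehicle. The interleukin arrays stood above all others, and hydrogen peroxide overlapped with vehicle. Apln rose 3.33-fold under interleukin (log2 change 1.74 ± 0.18, SE, adjusted p = 0.000132) and did not pass under hydrogen peroxide (0.09, adjusted p = 0.820), and the difference between the treatments passed (1.65, adjusted p = 0.000252). Oxt, the oxytocin gene, also rose under interleukin (1.74-fold, adjusted p = 0.00948, and 0.0787 without vehicle array 1). The apelin receptor Aplnr was too dim to be tested.

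Npr3, the natriuretic peptide clearance receptor, had 1674.4 and 2426.9 with interleukin, 1233.7 and 1271.3 with hydrogen peroxide, and 2986.5 and 2904.1 with vehicle. It fell under hydrogen peroxide by a log2 change of -1.23 ± 0.17 (SE, adjusted p = 0.00385), as did its other 2 tested probe sets (-1.28 and -1.38), and the call was lost without a trend in the variance (0.0778). Npy1r, a receptor of neuropeptide Y, was 2.47-fold higher with interleukin than with hydrogen peroxide (adjusted p = 0.00562) and passed against vehicle under neither. In this list 2 rose and 0 fell under interleukin (median log2 change -0.13, against -0.02 over all). Under hydrogen peroxide 0 rose and 1 fell (-0.41, against 0.02). Of all tested probe sets 16.1% were called under interleukin, 5.69% under hydrogen peroxide and 8.82% between the treatments. Between the treatments 3 were higher and 1, the receptor Npr2, lower (0.32, against -0.05). Of the 3, Npr3 (adjusted p = 0.0341) and, like it, Npr2 (0.0333) were lost without 5 of the 6 arrays, each left out in turn (0.0656 to 0.153 and 0.0559 to 0.149), and without a trend in the variance (0.130 and 0.138), and Apln and Npy1r were not. The other probe sets of Npr3 did not pass between the treatments (0.54 and 0.65, adjusted p = 0.213 and 0.273).

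**Figure D4:**
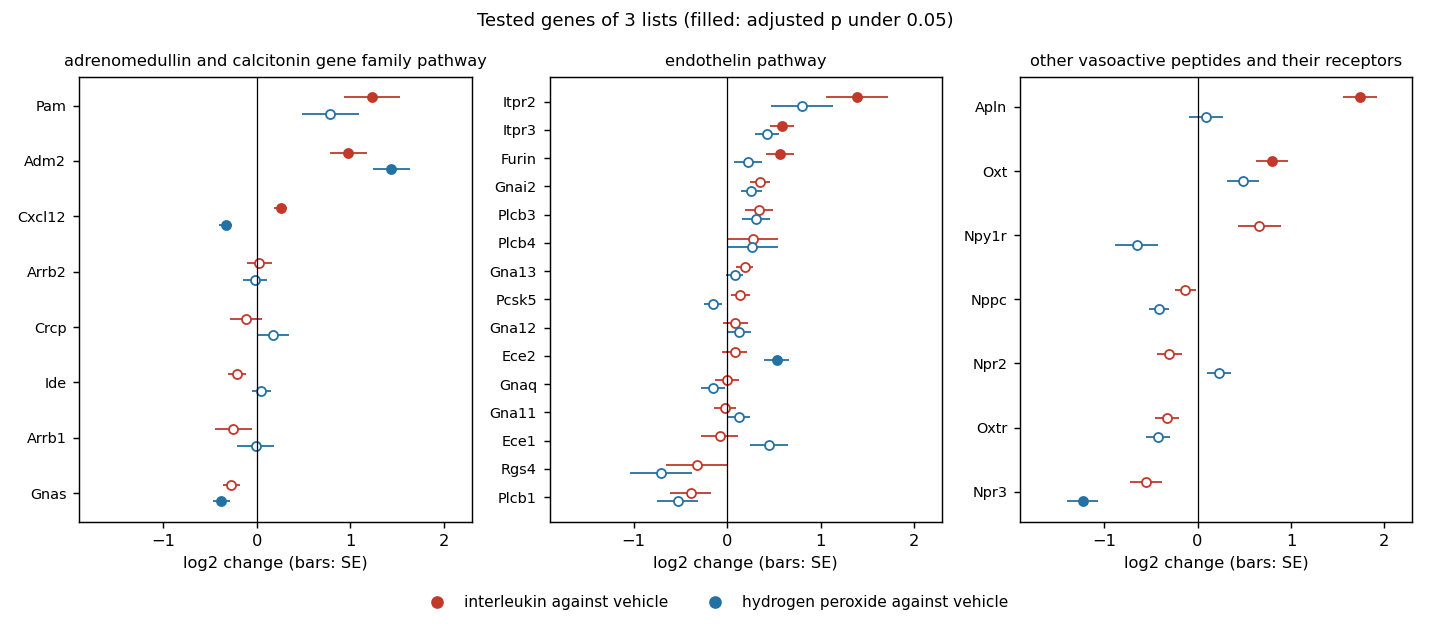
Log2 change against vehicle (horizontal axis) of the tested genes of the adrenomedullin family, endothelin and other vasoactive peptide lists under interleukin (red) and hydrogen peroxide (blue), with the standard error as bars and filled points where the adjusted p was under 0.05. Apln is the gene of the 3 lists with the highest change under interleukin (1.74), Adm2 has the highest under hydrogen peroxide (1.44), and most points are open.

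Regulators known to act on Adm and Edn1 were read from a list of 20 genes, of which 18 were tested. Of all tested probe sets 16.1% were called under interleukin, 5.69% under hydrogen peroxide and 8.82% between the treatments. In this list 6 rose, 2 fell and 10 did not pass under interleukin (median log2 change 0.13, against -0.02 over all). The 2 of smallest p that rose were the transcription factors Cebpd (9-fold) and Junb (2.93-fold). A second probe set of Cebpd, 1456605_at, rose by a log2 change of 1.39, against 3.17 at the brightest. The 2 that fell were Klf4, a transcription factor (log2 change -0.96), and Egln3, a hydroxylase that marks hypoxia-inducible factors for breakdown (-0.87 ± 0.11, SE, adjusted p = 0.000684). Under hydrogen peroxide 1 rose and 3 fell (median -0.11, against 0.02): Fosl1, an AP-1 subunit, was higher (log2 change 0.65), and Kdm3a, Klf2 and Egln3 were lower (-0.49, -0.56 and -0.47). Second probe sets of Fosl1 (1417488_at, 0.25, adjusted p = 0.471) and Egln3 (1418648_at, -0.15, adjusted p = 0.51) did not pass there. Cebpb was counted as not passing by its brightest probe set (0.27 under interleukin and 0.30 between the treatments). At 1427844_a_at it was called higher in both comparisons (0.65, adjusted p = 0.00291, and 0.81, 0.00107).

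All 4 of those calls under hydrogen peroxide were lost without a trend in the variance (0.102 to 0.177) and without any 1 of the arrays compared, at adjusted p of 0.0679 to 0.155, 0.0729 to 0.174, 0.110 to 0.208 and 0.127 to 0.203. Hif1a, a hypoxia-inducible factor subunit named here after its values were seen, gave different changes at its probe sets. The brightest rose by 0.51 (log2, adjusted p = 0.000815) under interleukin, 1416035_at by 1.48, and 1448183_a_at did not pass (0.09). Under hydrogen peroxide the brightest did not pass (0.16), while 1416035_at rose by 0.71 (adjusted p = 0.0173). Between the treatments 7 were higher with interleukin and 2 lower (median 0.20, against -0.05). The 4 of smallest p were Cebpd (11.4-fold higher), Junb (2.81-fold higher), Klf4 (lower, log2 change -0.71) and Egln1. Egln1, another such hydroxylase, was higher (log2 change 0.70, adjusted p = 0.00377). Egln1 did not pass at 1451110_at (0.66, adjusted p = 0.0993). At the second probe set of Cebpd the difference between the treatments was 1.21 on the log2 scale and did not pass (adjusted p = 0.0778), and the mean of both probe sets gave 2.36, against 3.51.

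By Euclidean distance of log2 signal minus the vehicle mean over the 6 arrays, the 4 genes nearest to Adm among 10888 were Slc7a2, a transporter of cationic amino acids (distance 0.62), Oas1a, an antiviral oligoadenylate synthetase (0.65), Ltbp2, a matrix protein that resembles the binding proteins of latent TGF-beta (0.77), and Zbp1, a sensor of nucleic acids (0.77). Slc7a2 had 732.8 and 750.8 with interleukin, 181.3 and 145.1 with hydrogen peroxide, and 74.9 and 102.6 with vehicle. Its arrays outside interleukin lay below 193.7, so it was tested only through the group where it was high, and its fold and its rank rest on dim vehicle signals. Genes chosen by this distance had to stand like Adm on these arrays, so their changes are given as a description with no test. The signal with interleukin over vehicle was 8.46-fold, 5.5-fold, 7.99-fold and 9.95-fold in the order above, and the log2 changes under hydrogen peroxide were 0.89, 0.98, 1.57 and 0.97. Edn1 had no tested probe set and was left out of this search.

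**Figure D5:**
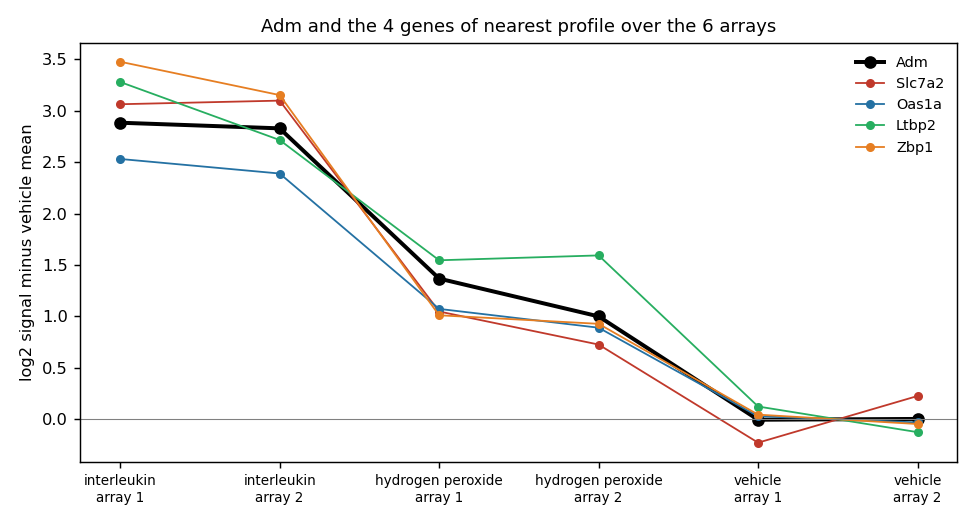
Log2 signal minus the mean of the vehicle arrays (vertical axis) of Adm and of the 4 genes of nearest profile on each of the 6 arrays, with a line joining the points of 1 gene. All 5 are highest on the interleukin arrays, between on the hydrogen peroxide arrays and near 0 with vehicle, and Ltbp2 lies above Adm on both hydrogen peroxide arrays.

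The genes of renin cells, smooth muscle and pericytes describe the cells in which these values were read. Of 13 on the array 8 were tested, Myh11, Rgs5, Des, Mcam and Gja5 were too dim, and renin and Akr1b7 were not analysed here. The contractile proteins Acta2 and Tagln rose under interleukin (1.99-fold, adjusted p = 0.00305, and 2.95-fold, adjusted p = 0.00892), as did the platelet-derived growth factor receptors Pdgfrb (1.47-fold) and, at its brightest probe set, Pdgfra (1.33-fold), while Foxd1, a transcription factor of the renal stroma, fell (log2 change -0.60, adjusted p = 0.0257). Under hydrogen peroxide Foxd1 and the potassium channel Kcnj8 fell (-0.98, adjusted p = 0.0066, and -1.65, adjusted p = 0.00255) and 0 rose. A second probe set of Pdgfra, 1421916_at, differed from the brightest, with a log2 change of -0.22 under interleukin (adjusted p = 0.355, against 0.41), -0.67 under hydrogen peroxide, which passed (adjusted p = 0.0264, against -0.02), and 0.45 between the treatments (adjusted p = 0.0856, against 0.43). Between the treatments Pdgfrb, Pdgfra and Kcnj8 were higher with interleukin and 0 were lower. The median log2 change was 0.25 under interleukin (-0.02 over all tested probe sets), 0.01 under hydrogen peroxide (0.02) and 0.40 between the treatments (-0.05). Of all tested probe sets 16.1%, 5.69% and 8.82% were called, in that order.

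Without a trend in the variance the calls of Acta2 (0.0542), Tagln (0.0556), Pdgfrb (0.0501), Pdgfra (0.0813) and Foxd1 (0.0642) under interleukin were lost, as were those of Foxd1 (0.0735) and Kcnj8 (0.0740) under hydrogen peroxide and of Pdgfra between the treatments (0.114). Among these calls, those lost without 1 array were Tagln without interleukin array 1 or vehicle array 2 (adjusted p 0.0730 to 0.0794), Pdgfra under interleukin without vehicle array 1 (0.0510), and Foxd1, under interleukin without any 1 of the 4 arrays (0.0551 to 0.204) and under hydrogen peroxide without hydrogen peroxide array 1 or vehicle array 1 (0.0527 to 0.0841). The summed signal, mostly that of the brightest probe set of Pdgfra, was 77228 and 71089 with interleukin, 52121 and 53740 with hydrogen peroxide, and 52987 and 53868 with vehicle. Of 11 epithelial and tubule markers 2 were tested and limma called 0, with 0, 1 and 0 at an unadjusted p under 0.05 under interleukin, under hydrogen peroxide and between the treatments, and their sum was 1554 and 1799 with interleukin, 1509 and 1278 with hydrogen peroxide, and 1716 and 1785 with vehicle. Array medians were 192.2 to 232.3, arrays of 1 group correlated at 0.9808 to 0.9871 and arrays of different groups at 0.9535 to 0.9753.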

How the data were processed

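RNA of As4.1 cells was hybridised to 6 one-colour Affymetrix mouse arrays, 2 each for interleukin, hydrogen peroxide and vehicle. The authors deposited 1 table of intensity values on a linear scale, made with MAS5 per the submitters' processing notes (version not given in the sources used here). The trimmed mean, leaving out 2% at each end, was 1500.01 on every array, so arrays had been scaled to it. The deposited intensities were taken to log2 with no pseudocount, and 64 control probe sets were left out. Dim probe sets were removed (mean log2 signal under the median of 45037), which left 22519. Precision is limited by there being 2 arrays in a group.

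All 6 arrays entered 1 limma fit (version 3.58.1, R 4.3.3, eBayes with a trend on signal) with a term per group, and p-values were Benjamini-Hochberg adjusted over all tested probe sets of a comparison, with a threshold of 0.05. Of 45037 probe sets 34945 had 1 gene symbol, 932 several and 9160 none listed, and 34741 were updated to RefSeq names (GRCm38.p6), the source of coordinates and sequences. A gene of a list was read at its brightest probe set. The text names all members, from each list the called genes of smallest p, up to 4 per comparison, cell type markers that were dim, and the 4 genes nearest to Adm. The members, lists and motifs were chosen with earlier results of these data known. The fit was tested on simulated data. Replicate-1 arrays deviated from their group means with correlations of 0.107 (hydrogen peroxide and vehicle), 0.053 (interleukin and vehicle) and -0.129 (interleukin and hydrogen peroxide), so the numbers were not taken to pair samples. Alternatives were other filters, normalizations, variance models, thresholds and probe set choices, a pseudocount of 32, only the 4 arrays compared, the replicate block, and leaving out each array.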

Additional observations from a re-analysis of the deposited data

How the results depend on the processing

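With a variance model without a trend on signal, limma called 1783 probe sets under interleukin, 57 under hydrogen peroxide and 716 between the treatments, against 3627, 1282 and 1987 with the trend. The cause was not tested. The members called fell to 2 under interleukin (Adm and Ramp3), against 4, and to 0 under hydrogen peroxide, against 2. When probe sets with a suffix for several possible transcripts were left out, only 2 members (Adm and Ramp2) could be tested, and 2, 1 and 1 were called. Of the 16118 probe sets tested in that setting 825 were called under hydrogen peroxide. A fold of at least 2 left 1040, 291 and 579 probe sets, and 2 members under interleukin and 1 under hydrogen peroxide. With 1 probe set per gene 10892 were tested, against 22519 in the main fit. Of these 2128 were called under interleukin and 1270 under hydrogen peroxide, where 3 members were called (Ramp2 added). With no filter on signal 762 of 45037 were called under hydrogen peroxide. Leaving out each array in turn gave 1554 to 3583 probe sets under interleukin, 235 to 1751 under hydrogen peroxide and 839 to 1919 between the treatments, and 2 to 4, 1 to 2 and 2 to 3 members. Of 75 called changes of named genes 40 were called without each array in turn and 35 were lost at least once, and 39 were lost without the trend. The 75 take in calls of the 4 genes chosen for lying nearest to Adm on these arrays. They also take in calls of Hif1a and of Gnas 1427789_s_at, named after their values were seen. The 75 are therefore not a set chosen apart from these values. With the mean of a gene's probe sets Hif1a turned to -0.04 under interleukin and -0.20 between the treatments, and Sp1 to -0.44 under interleukin (log2). The mean of Hif1a takes in 1 probe set too dim to be tested (-2.26 and -2.12). Its 3 tested probe sets had changes above 0, of which 1448183_a_at did not pass (0.09 and 0.20). The 3 of Sp1 disagreed. The brightest of Sp1, by which it was counted above as risen under interleukin, had a log2 change of 0.36 (limma adjusted p = 0.0336). At 1448994_at Sp1 was called lower (-1.65, adjusted p = 0.00298), and 1454852_at did not pass (-0.05). With the replicate number as a block, limma called 3342, 1170 and 1756 probe sets and the same 4, 2 and 3 members, and among named genes the block ended the calls of Cd68 (0.0590), Ece2 (0.0549), Egln3 (0.0543) and Klf2 (0.0526) under hydrogen peroxide and no other.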

Other observations

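A second probe set of Gnas, the stimulatory G-protein subunit that the adrenomedullin receptor uses, stood apart from the brightest one and was chosen after its values were seen. At 1427789_s_at the signal was 249.5 and 249.4 with interleukin, 1561.0 and 1687.4 with hydrogen peroxide, and 4279.7 and 4374.8 with vehicle, and no groups overlapped. The log2 change was -4.12 ± 0.15 under interleukin (SE, n = 2 per group, limma adjusted p = 1.55e-07), -1.41 ± 0.15 under hydrogen peroxide (adjusted p = 0.00105) and -2.70 ± 0.15 with interleukin over hydrogen peroxide (adjusted p = 2.93e-06). At the brightest probe set of the gene, 1450186_s_at, the signal was 38071.1 and 44677.3 with interleukin, 40247.0 and 36206.3 with hydrogen peroxide, and 49259.0 and 49878.3 with vehicle, and the log2 change under interleukin was -0.27 (adjusted p = 0.0686). Gnas is a locus of several transcripts with different first exons, and which of them each probe set reads was not tested. The other 3 probe sets of the gene were too dim to be tested.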
